A study of Homo sapiens with 24 samples.

Results

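KIAA0040, RGCC, CILK1, C1orf54, RTKN2, ATL3, CCDC167 and BTG3 are 8 transcripts that were lower in 2 B-cell lymphoma lines after exposure to AZD5153 or to its combination with Entospletinib. They were picked on exactly these falls, together with the condition that they belong to no family of cell cycle genes. They are 8 of the 25161 gene symbols in the table, and each had 1 of its 25575 rows. SU-DHL-4 is a permanent cell line of diffuse large B-cell lymphoma, and DG-75 is one of Burkitt lymphoma. For 72 h the cells of each received 1 of 4 treatments, namely DMSO as control, Entospletinib at 1 µM (Ento), AZD5153 at 0.01 µM (AZD), or both drugs at these doses (Ento+AZD). All groups were kept in the same medium with serum and antibiotics. The series design text calls the 3 arrays of each of the 8 groups biological triplicates. Each line stands for 1 culture model of its disease, so that spread between patients was not measured.

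With its bivalent structure AZD blocks BET proteins, which are chromatin readers that hold the transcription machinery at acetylated histones. Blocking them lowers many transcripts with short half-lives in lymphoma cells, and proliferation slows. The target of Ento is SYK, a tyrosine kinase through which the B-cell receptor signals into the cell. The 8 genes have little in common in their known roles. RGCC is a regulator of the cell cycle that binds CDK1, and BTG3 is an antiproliferative protein that recruits a deadenylase of messenger RNA. CILK1 is a protein kinase of ciliary transport, and RTKN2 is a paralog of RTKN. ATL3 is a GTPase that fuses tubules of the endoplasmic reticulum and also serves as a receptor for its autophagy. CCDC167 and KIAA0040 are small predicted membrane proteins, and C1orf54 is a small protein of little known function.

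Start regions of the members were read from RefSeq (GRCh38.p14) because the 8 transcripts were lower together. The table held 7 of the 8, and CILK1 had no entry. The 250 bases before the start were searched on both strands for 6 motifs, namely the E-box CACGTG, the CHR element TTTGAA, the CCAAT box, the GC box GGGCGG and the E2F letters TTTGGCGC and TTTCCCGC. Capitals mark motif matches in the 5 regions shown, written 5′ to 3′ in the direction of the gene. KIAA0040 and RGCC are shown because they had calls under AZD in both lines, ATL3 and CCDC167 for the motifs that no other member had, and C1orf54 as the region with no match.
KIAA0040, chr1:175192988-175193237 (minus strand): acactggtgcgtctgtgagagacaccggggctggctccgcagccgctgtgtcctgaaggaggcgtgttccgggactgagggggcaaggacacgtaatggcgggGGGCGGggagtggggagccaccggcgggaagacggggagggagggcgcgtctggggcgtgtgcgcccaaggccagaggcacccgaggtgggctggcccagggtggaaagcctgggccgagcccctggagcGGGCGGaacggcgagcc
RGCC, chr13:41457300-41457549 (plus strand): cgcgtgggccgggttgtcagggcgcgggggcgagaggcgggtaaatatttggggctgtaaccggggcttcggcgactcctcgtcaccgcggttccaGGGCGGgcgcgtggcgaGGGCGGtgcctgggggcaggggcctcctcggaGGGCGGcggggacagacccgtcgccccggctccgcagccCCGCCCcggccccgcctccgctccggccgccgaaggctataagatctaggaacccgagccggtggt
ATL3, chr11:63671377-63671626 (minus strand): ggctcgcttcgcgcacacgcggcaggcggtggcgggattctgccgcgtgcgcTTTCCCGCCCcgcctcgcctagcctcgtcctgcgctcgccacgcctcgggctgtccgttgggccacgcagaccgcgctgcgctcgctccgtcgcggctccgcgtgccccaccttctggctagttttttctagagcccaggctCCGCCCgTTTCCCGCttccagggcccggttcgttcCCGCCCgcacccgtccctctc
CCDC167, chr6:37499894-37500143 (minus strand): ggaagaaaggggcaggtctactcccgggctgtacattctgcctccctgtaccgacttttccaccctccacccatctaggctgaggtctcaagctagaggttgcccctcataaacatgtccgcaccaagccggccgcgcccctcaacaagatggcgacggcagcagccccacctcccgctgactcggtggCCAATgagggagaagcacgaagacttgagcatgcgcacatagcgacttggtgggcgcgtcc
C1orf54, chr1:150272540-150272789 (plus strand): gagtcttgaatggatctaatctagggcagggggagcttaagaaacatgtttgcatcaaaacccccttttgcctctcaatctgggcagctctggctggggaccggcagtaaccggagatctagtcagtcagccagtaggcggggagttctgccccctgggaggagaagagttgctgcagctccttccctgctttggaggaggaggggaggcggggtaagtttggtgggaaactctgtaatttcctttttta
The GC box was found before 5 of the 7 members (KIAA0040, RGCC, RTKN2, ATL3 and BTG3) and in 42.3% of all 27305 regions of this length. The letters TTTCCCGC stood before ATL3 at 198 and at 49 bases from the start, the first of them overlapping a GC box, and 1.42% of all regions held them. A CCAAT box lay 61 bases before the start of CCDC167, as in 33% of all regions. The E-box (6.49% of all regions), the CHR element (13.6%) and TTTGGCGC (0.553%) were not in these windows of the 7 members. GC content of the 7 members ran from 53.6% before C1orf54, with 4 CpG sites, to 78.4% before BTG3, with 39 CpG sites, against medians of 58% and 11 sites over all regions. These matches describe letters in a window, and no binding was measured here.

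Array medians lay between 4.89 and 5.14 on the log2 scale, replicates correlated at 0.981 to 0.992 over all rows, and all arrays had values of their own. In DMSO arrays the 8 B-cell markers examined, such as CD79A, CD22 and PAX5, had group means of 6.26 to 12.09, and the T-cell markers CD3D, CD3E, CD3G, CD247, CD4 and CD8A had 2.29 to 5.51. The myeloid, epithelial and stromal markers had 2.38 (EPCAM) to 7.16 (COL1A2). HEXIM1, a transcript that commonly rises when BET proteins are blocked, differed from DMSO by 0.77 (SE 0.17) under AZD and by 0.93 (SE 0.17) under Ento+AZD in DG-75, and by 0.15 and -0.15 (SE 0.17) in SU-DHL-4, and none of these values passed both thresholds given next. The other two transcripts listed as a check of the treatment were not called either: MYC had -0.11 and -0.31 in SU-DHL-4 and -0.23 and -0.14 in DG-75 under AZD and Ento+AZD, and SERPINI1 had -0.44 and -0.21, and -0.15 and -0.28. The table carried no detection values, so that a low log2 value cannot be read as expressed or not expressed. The number of arrays, 3 per group, limits the precision.

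A row was called when limma gave an adjusted p under 0.05 over all rows and a log2 change beyond 1 in size. Because AZD and Ento+AZD against DMSO chose the members, their changes in these comparisons are a description. Under AZD, 5 members were called lower in SU-DHL-4 (KIAA0040, RGCC, CILK1, C1orf54 and RTKN2), where 0.180% of all rows were called lower. In DG-75 there were 4 (KIAA0040, RGCC, ATL3 and CCDC167), against 0.164% of all rows. Only 2 rows of the whole table, 0.00782%, were called lower under AZD in both lines, and these were KIAA0040 and RGCC. Under Ento+AZD, 6 members were called lower in SU-DHL-4 (all but RGCC and CILK1) beside 1.09% of all rows, and 6 in DG-75 (all but KIAA0040 and CILK1) beside 0.708%. Of the 80 rows called lower under Ento+AZD in both lines, 0.313% of the table, C1orf54, RTKN2, ATL3, CCDC167 and BTG3 were 5. CILK1 was called in only 1 of the 4 comparisons, AZD in SU-DHL-4. Just inside the fold limit lay KIAA0040 in SU-DHL-4 and CCDC167 in DG-75, both with a log2 change of -1.01 under AZD, and just outside lay CILK1 in SU-DHL-4 with -0.99 under Ento+AZD. BTG3 in SU-DHL-4 (-1.04) and RTKN2 in DG-75 (-1.09) passed the fold limit under AZD but not the adjusted p. An unadjusted p under 0.05, quoted for several lists further on, was found in limma for 11.5% and 13.8% of all rows under AZD and for 14.0% and 16.0% under Ento+AZD, in SU-DHL-4 and DG-75.

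Single arrays are again a description, since the members were picked on these falls and a separation from DMSO is built into the choice. Every AZD array lay below every DMSO array for all 8 members in both lines, a separation shown by 12.9% of all rows in SU-DHL-4 and by 14.6% of them in DG-75. Under Ento+AZD it held for 8 members in SU-DHL-4 (16.0% of all rows) and for 7 in DG-75 (14.0%), with RGCC as the exception. In RNA from a whole culture, less of a transcript in each cell and fewer cells that carry it cannot be told apart. The arrays numbered 2 of SU-DHL-4 stood apart under treatment, which bears on several members: the mean of 25 proliferation transcripts was 8.22 under Ento, 8.12 under AZD and 7.06 under Ento+AZD on them, below the other arrays of each group, which had 8.39 to 9.56. Without the 4 SU-DHL-4 arrays numbered 2, the 5 members called under AZD in that line became 3 (RGCC, CILK1 and RTKN2) and the 6 under Ento+AZD became 1 (C1orf54). The log2 changes of these 5 and 6 members then ran from -1.82 to -0.94 and from -1.91 to -0.83. Without the replicate number as a term, 1 and 2 of them were called in SU-DHL-4, while the calls over all rows went from 46 to 9 under AZD and from 304 to 45 under Ento+AZD. Omission of any 1 array left 0 of the 4 calls under AZD in DG-75, where the calls over all rows also went from 46 to 0 and the changes of the 4 members ran from -1.59 to -0.87. The 6 calls under Ento+AZD in DG-75 became 0 to 5 with 1 array omitted, 2 under quantile normalization and 5 without the replicate number, and over all rows the count with 1 array omitted ran from 0 to 272 (213 with all arrays). It was 0 without the DMSO or without the Ento+AZD array numbered 1. Quantile normalization left no member called under AZD in either line, while the calls over all rows went from 46 in each line to 0 for SU-DHL-4 and 2 for DG-75.

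**Figure D1:**
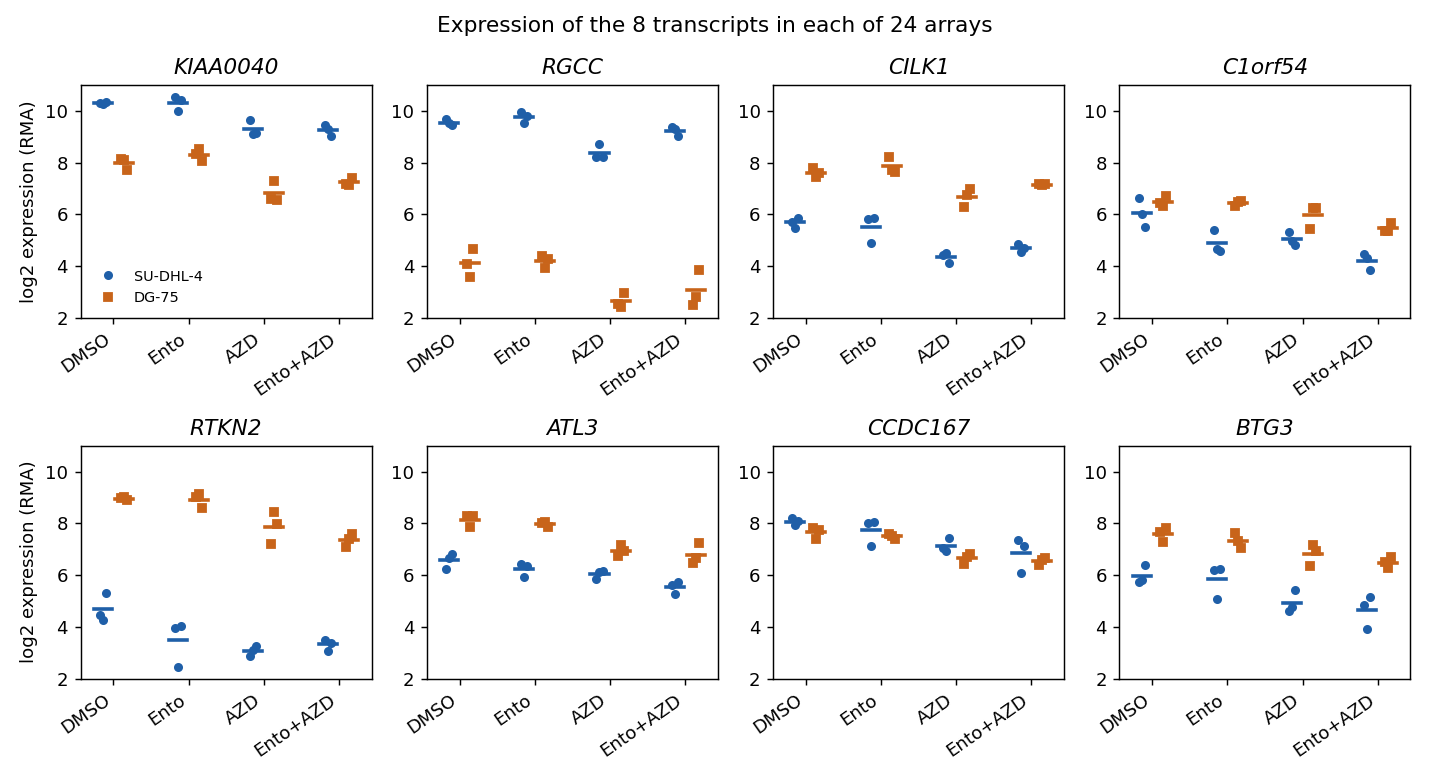
Log2 expression (vertical axis) of each of the 8 transcripts in the 4 treatments (horizontal axis), with 1 point per array (circles SU-DHL-4, squares DG-75) and a bar at the mean of 3 arrays. All AZD arrays sit below the DMSO arrays of the same line, and RGCC and RTKN2 sit far apart between the lines.

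Among regulators of growth, RGCC had the widest gap between the lines. In SU-DHL-4 it measured 9.67, 9.52 and 9.45 under DMSO, 9.97, 9.51 and 9.79 under Ento, 8.23, 8.72 and 8.21 under AZD, and 9.38, 9.28 and 9.03 under Ento+AZD. The AZD arrays were lowest, the Ento+AZD arrays lay between them and DMSO without touching either, and the Ento arrays overlapped DMSO. In DG-75 the values were 4.09, 3.59 and 4.65 under DMSO, 4.39, 3.91 and 4.27 under Ento, 2.55, 2.40 and 2.97 under AZD, and 2.51, 2.80 and 3.86 under Ento+AZD. There the Ento+AZD arrays overlapped AZD with 2.51 and 2.80, and DMSO with 3.86. The log2 change under AZD was -1.16 (SE 0.18) for SU-DHL-4 and -1.47 (SE 0.23) for DG-75, whereas under Ento+AZD it was -0.32 (SE 0.18) and -1.05 (SE 0.23). Of its listed partners CDK1, CCNB1, PLK1, AKT1 and SMAD3, CDK1 was lower under Ento+AZD with changes of -1.60 in SU-DHL-4 (adjusted p = 0.00815, limma) and -1.27 in DG-75 (adjusted p = 0.0182). PLK1, a mitotic kinase, fell by 1.39 in SU-DHL-4 (adjusted p = 0.0152, limma). CDK1, CCNB1 and PLK1 are also on the list of 25 proliferation transcripts described below, of which 17 were called lower there. AKT1 and SMAD3 are not on that list and differed by -0.30 and -0.18 in SU-DHL-4, and by -0.16 and -0.30 in DG-75. Without the SU-DHL-4 arrays numbered 2, 1 of the 5 partners was called lower under Ento+AZD in that line. None of the 5 partners was called under AZD, where limma gave an unadjusted p under 0.05 for 3 of them in each line.

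BTG3 stood lower by similar amounts under both treatments. Its SU-DHL-4 arrays read 5.75, 5.79 and 6.38 under DMSO, 6.20, 5.07 and 6.23 under Ento, 4.61, 4.78 and 5.42 under AZD, and 4.85, 3.93 and 5.17 under Ento+AZD. The lowest value of the Ento and of the Ento+AZD group was in each case the array numbered 2. In DG-75 the arrays read 7.67, 7.27 and 7.81 under DMSO, 7.64, 7.30 and 7.06 under Ento, 6.35, 7.18 and 6.92 under AZD, and 6.49, 6.27 and 6.69 under Ento+AZD. The changes were -1.04 (SE 0.23) and -0.77 (SE 0.24) under AZD in SU-DHL-4 and DG-75, and -1.32 (SE 0.23) and -1.10 (SE 0.24) under Ento+AZD. Of the relatives of BTG3, none of BTG1, BTG2, BTG4, TOB1 and TOB2 was called lower in any comparison with DMSO. BTG2, a family member that p53 induces, was higher under Ento+AZD in DG-75 by 1.19 (SE 0.20, adjusted p = 0.0214, limma), and differed by 0.02 (SE 0.14) in SU-DHL-4. That call and the one of CDK1 in DG-75 were among those lost without the DMSO or Ento+AZD array numbered 1. The 11 listed subunits of the CCR4-NOT deadenylase, to which BTG3 binds, had 0 calls under either treatment, with an unadjusted p under 0.05 in limma for 1 to 3 of them per comparison.

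CILK1 was the member in which AZD, Ento+AZD and DMSO arrays separated in the same order in both lines. In SU-DHL-4 the log2 values were 5.72, 5.48 and 5.86 under DMSO, 5.80, 4.90 and 5.86 under Ento, 4.42, 4.50 and 4.11 under AZD, and 4.87, 4.53 and 4.70 under Ento+AZD. DG-75 gave 7.78, 7.43 and 7.61 under DMSO, 8.23, 7.71 and 7.62 under Ento, 6.30, 6.75 and 6.96 under AZD, and 7.16, 7.12 and 7.16 under Ento+AZD. AZD was lowest, Ento+AZD intermediate and DMSO highest, with no overlap among these groups. The changes were -1.34 (SE 0.21) and -0.93 (SE 0.20) under AZD, and -0.99 (SE 0.21) and -0.46 (SE 0.20) under Ento+AZD, in SU-DHL-4 and DG-75. Its relatives MAK, MOK and CDK20 and 7 motor and transport subunits of cilia had 0 calls in these comparisons, and 1 of the 10 had an unadjusted p under 0.05 (limma) in each. KIFAP3, which links kinesin motors to their cargo, had the largest values in SU-DHL-4. They were -1.09 (SE 0.26, adjusted p = 0.119, limma) under AZD and -1.02 (SE 0.26, adjusted p = 0.0609) under Ento+AZD, beside -0.15 and 0.00 (SE 0.22) in DG-75. IFT80 went the other way in DG-75, by 0.54 (SE 0.16) under AZD and 0.80 (SE 0.16, adjusted p = 0.0326, limma) under Ento+AZD, short of the fold limit. In SU-DHL-4 it differed by -0.24 and 0.13 (SE 0.16).

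RTKN2, like RGCC, was measured at very different levels in the lines. Its SU-DHL-4 arrays gave 4.46, 4.27 and 5.29 under DMSO, 3.96, 2.46 and 4.03 under Ento, 2.87, 3.11 and 3.26 under AZD, and 3.50, 3.08 and 3.39 under Ento+AZD. In this line all treated arrays, Ento included, lay below all DMSO arrays. In DG-75 the readings were 8.98, 9.00 and 8.89 under DMSO, 9.01, 9.13 and 8.61 under Ento, 7.19, 8.42 and 7.97 under AZD, and 7.07, 7.41 and 7.60 under Ento+AZD. Here Ento overlapped DMSO, and only the groups with AZD were lower. Changes under AZD were -1.60 (SE 0.28) and -1.09 (SE 0.24), and under Ento+AZD -1.35 (SE 0.28) and -1.60 (SE 0.24), in SU-DHL-4 and DG-75. RTKN, its closest relative, differed from DMSO by -0.11 (SE 0.15) and -0.21 (SE 0.12) under AZD, and by -0.32 (SE 0.15) and -0.52 (SE 0.12) under Ento+AZD, and was not called (adjusted p = 0.0562 for the last, limma).

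Of the membrane proteins, ATL3 was lower by more in DG-75 under AZD. SU-DHL-4 arrays held 6.23, 6.67 and 6.80 under DMSO, 6.44, 5.91 and 6.33 under Ento, 5.83, 6.11 and 6.14 under AZD, and 5.62, 5.26 and 5.75 under Ento+AZD. In this line all Ento+AZD arrays were below all AZD arrays. DG-75 arrays held 8.28, 7.84 and 8.30 under DMSO, 8.01, 8.05 and 7.85 under Ento, 6.72, 7.17 and 6.92 under AZD, and 6.46, 6.67 and 7.23 under Ento+AZD, and the last 2 groups overlapped. The log2 changes were -0.54 (SE 0.19) and -1.20 (SE 0.21) under AZD, and -1.02 (SE 0.19) and -1.35 (SE 0.21) under Ento+AZD, in SU-DHL-4 and DG-75, and the difference between the lines was not tested for these comparisons. The other atlastins, ATL1 and ATL2, differed from DMSO by -0.32 (SE 0.19) and -0.32 (SE 0.16) under AZD in SU-DHL-4. Across the 15 listed proteins that shape the endoplasmic reticulum and the 7 listed receptors of its autophagy, 0 were called under either treatment in limma, with an unadjusted p under 0.05 for 2 to 6 of the first and 0 to 2 of the second.

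CCDC167 had nearly equal levels in both lines. In SU-DHL-4 the arrays gave 8.19, 7.94 and 8.07 under DMSO, 8.0, 7.12 and 8.05 under Ento, 7.04, 6.92 and 7.45 under AZD, and 7.35, 6.09 and 7.12 under Ento+AZD. The arrays numbered 2 were again the lowest of each treated group. In DG-75 they gave 7.83, 7.39 and 7.73 under DMSO, 7.60, 7.49 and 7.38 under Ento, 6.42, 6.71 and 6.80 under AZD, and 6.40, 6.59 and 6.66 under Ento+AZD. AZD and Ento+AZD arrays overlapped in both lines and lay below DMSO. The changes were -0.93 (SE 0.21) and -1.01 (SE 0.16) under AZD, and -1.21 (SE 0.21) and -1.10 (SE 0.16) under Ento+AZD, in SU-DHL-4 and DG-75.

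KIAA0040 had tight DMSO values in SU-DHL-4. There the arrays measured 10.32, 10.25 and 10.34 under DMSO, 10.53, 9.98 and 10.40 under Ento, 9.65, 9.11 and 9.13 under AZD, and 9.44, 9.29 and 9.02 under Ento+AZD. Both groups with AZD lay about as far below DMSO, and Ento arrays lay on either side of it. In DG-75 the values were 8.12, 8.08 and 7.73 under DMSO, 8.32, 8.51 and 8.05 under Ento, 6.60, 7.29 and 6.57 under AZD, and 7.16, 7.13 and 7.42 under Ento+AZD. AZD gave changes of -1.01 (SE 0.17) and -1.16 (SE 0.19), and Ento+AZD gave -1.05 (SE 0.17) and -0.74 (SE 0.19), in SU-DHL-4 and DG-75.

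C1orf54 was lowest under the combination. The SU-DHL-4 arrays read 6.62, 6.03 and 5.50 under DMSO, 5.41, 4.64 and 4.59 under Ento, 5.30, 4.96 and 4.82 under AZD, and 4.46, 4.32 and 3.84 under Ento+AZD. In this line both single agents lay below DMSO without overlap, and the combination lay below both. In DG-75 the arrays read 6.45, 6.32 and 6.71 under DMSO, 6.31, 6.46 and 6.52 under Ento, 5.45, 6.25 and 6.23 under AZD, and 5.37, 5.34 and 5.67 under Ento+AZD. Ento arrays of DG-75 overlapped DMSO. The AZD changes were -1.02 (SE 0.17) and -0.52 (SE 0.17), and those under Ento+AZD were -1.85 (SE 0.17) and -1.04 (SE 0.17), in SU-DHL-4 and DG-75, the first of the latter being the largest change of any member.

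**Figure D2:**
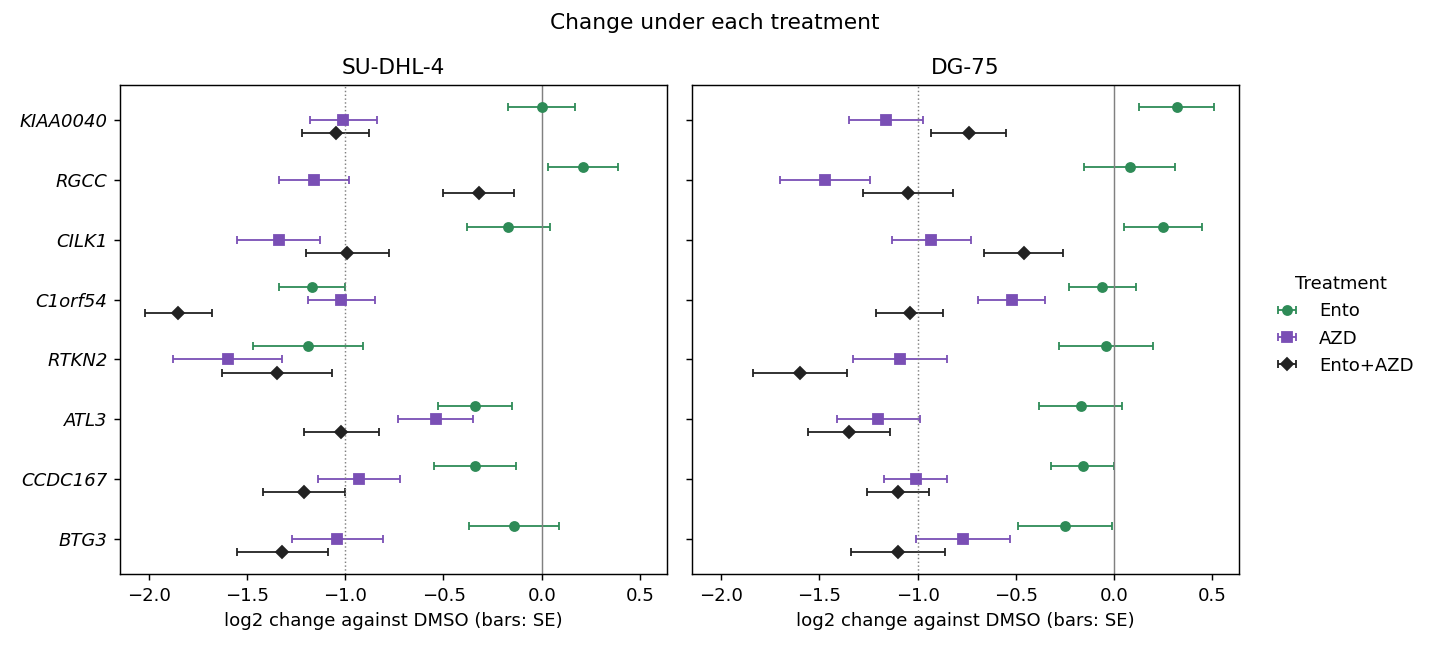
Log2 change against DMSO (horizontal axis) of each transcript under Ento (circles), AZD (squares) and Ento+AZD (diamonds), with bars for the SE of the limma fit and a dotted line at the fold limit. Ento values lie near 0 in DG-75, while in SU-DHL-4 those of C1orf54 (-1.17) and RTKN2 (-1.19) lie beyond the dotted line.

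Whether Ento alone moved these transcripts is a comparison that did not choose them, although it shares the DMSO arrays with the comparisons that did. In SU-DHL-4, C1orf54 fell by 1.17 (SE 0.17, adjusted p = 0.0327, limma), and was lower in 3 of 3 same-numbered arrays, a description since the numbers were not shown to pair the arrays. It was 1 of 3 rows called lower there, 0.0117% of the table. RTKN2 differed by -1.19 (SE 0.28, adjusted p = 0.268, limma) in the same line, also lower in 3 of 3. With 1 array omitted its change ran from -1.47 to -0.78, and without the SU-DHL-4 arrays numbered 2 it was -0.88. These 2 members had every Ento array below every DMSO array, as 9.33% of all rows did. Omission of any 1 of the 6 arrays ended the C1orf54 call, with changes of -1.30 to -1.05, and without the SU-DHL-4 arrays numbered 2 it was -1.06 (adjusted p = 0.357). With quantile normalization it was -1.07 (adjusted p = 0.0550), and without the replicate number as a term the adjusted p was 0.364. The other members changed by -0.34 to 0.21 in SU-DHL-4.

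In DG-75 no member was called under Ento in limma, nor did any have an unadjusted p under 0.05, and 0% of all rows were called lower. The changes ran from -0.25 (SE 0.24) for BTG3 to 0.32 (SE 0.19) for KIAA0040. For C1orf54 the change was -0.06 with a 95% confidence interval of -0.45 to 0.32, and for RTKN2 -0.04 with an interval of -0.56 to 0.48. No member had Ento arrays below all DMSO arrays, as 3.56% of all rows did. The difference between the lines in the Ento change was -1.11 (SE 0.24) for C1orf54 and -1.15 (SE 0.40) for RTKN2, each more negative in SU-DHL-4. With adjusted p of 0.536 and 0.9995 neither was called, while 0.00782% of all rows were, and the unadjusted p of both, 0.000206 and 0.00991, was under 0.05.

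The combination was set against AZD alone to see what Ento added, with the reserve that both groups had entered the choice of members against DMSO. A member picked through a low AZD value tends to stand higher under the combination, and one picked through the combination lower. The directions below are therefore a description. No member was called in either line by limma, where 0.0274% of all rows were called for SU-DHL-4 and 0% for DG-75. Unadjusted p-values under 0.05 were found for RGCC, C1orf54 and ATL3 in SU-DHL-4 and for CILK1 and C1orf54 in DG-75, as for 7.03% and 4.03% of all rows. RGCC differed by 0.85 in SU-DHL-4 (95% confidence interval 0.46 to 1.23, adjusted p = 0.277), higher under the combination in 3 of 3 same-numbered arrays, and by 0.41 in DG-75 (-0.08 to 0.91). CILK1 differed by 0.36 (-0.10 to 0.81) and 0.48 (0.03 to 0.93), higher in 3 of 3 in both lines. In the other direction C1orf54 differed by -0.82 in SU-DHL-4 (-1.18 to -0.46, adjusted p = 0.255) and by -0.52 in DG-75 (-0.90 to -0.14), lower in 3 of 3 in both lines. ATL3, CCDC167 and BTG3 had values of -0.48 to -0.09 in the 2 lines. RTKN2 differed by 0.25 (-0.36 to 0.85) in SU-DHL-4 and by -0.50 (-1.02 to 0.01) in DG-75, and KIAA0040 by -0.05 (-0.41 to 0.31) and 0.42 (0.00 to 0.83). Ento+AZD and AZD arrays did not overlap for RGCC, CILK1, C1orf54 and ATL3 in SU-DHL-4, against 9.18% of all rows, and for CILK1 in DG-75, against 7.55%.

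**Figure D3:**
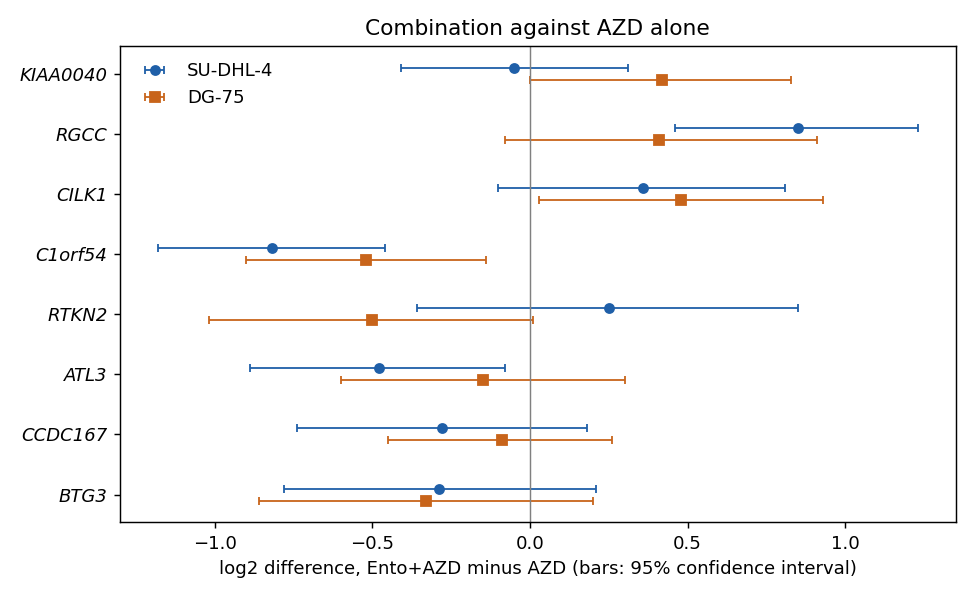
Log2 difference between Ento+AZD and AZD (horizontal axis) for each transcript in SU-DHL-4 (circles) and DG-75 (squares), with 95% confidence intervals from limma. RGCC and CILK1 lie to the right of 0 in both lines and C1orf54, ATL3, CCDC167 and BTG3 to the left, and no value was called after adjustment over all rows.

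Set against Ento alone, the combination was lower for every member in both lines. This is a description, since Ento+AZD had entered the choice. The differences were -1.18 (BTG3) to -0.16 (RTKN2) in SU-DHL-4 and -1.56 (RTKN2) to -0.71 (CILK1) in DG-75. All 3 same-numbered pairs had the lower value under the combination in each case but RTKN2 in SU-DHL-4, with 2 of 3. RTKN2 thus lay at -1.19 under Ento, -1.60 under AZD and -1.35 under both in SU-DHL-4, beside -0.04, -1.09 and -1.60 in DG-75, all against the same DMSO arrays of each line.

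The lines were compared under DMSO and again under Ento, and no Ento array had entered the choice. RGCC was higher in SU-DHL-4 by 5.44 (SE 0.28, adjusted p = 7.89e-13, limma) under DMSO and by 5.57 (SE 0.28) under Ento. KIAA0040 was higher there too, by 2.33 (SE 0.20, adjusted p = 6.12e-09) and 2.01 (SE 0.20). RTKN2 was higher in DG-75, with differences of -4.28 (SE 0.33, adjusted p = 1.28e-09) under DMSO and -5.43 (SE 0.33) under Ento. The low sides of these differences, RGCC in DG-75 (group means 4.11 and 4.19) and RTKN2 in SU-DHL-4 (4.68 and 3.49), lay within the range of markers of other cell types. Since neither was shown to be above background there, these differences are between array values, may be lower bounds for the transcripts, and are not turned into folds. The same limit holds for every other change or difference with a group mean in that range, which includes all groups of CILK1, C1orf54, RTKN2, ATL3 and BTG3 in SU-DHL-4 and of RGCC and C1orf54 in DG-75. CILK1 (-1.92, SE 0.22), ATL3 (-1.57, SE 0.20) and BTG3 (-1.61, SE 0.32) were likewise higher in DG-75 under DMSO, and under Ento the values were -2.33, -1.74 and -1.50. Thus 6 members were called under DMSO, where 7.20% of all rows were, and 7 under Ento, where 8.03% were. C1orf54 was the added one: its difference was -0.44 (95% confidence interval -0.99 to 0.10, adjusted p = 0.303) under DMSO and -1.55 (SE 0.26, adjusted p = 0.000101) under Ento. CCDC167 did not pass under either, at 0.41 (-0.12 to 0.95) and 0.23 (-0.30 to 0.76). The 6 calls under DMSO and the 7 under Ento were also made in every fit that left out 1 array.

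The members were set beside a list of 25 proliferation transcripts, among them MKI67, TOP2A, PCNA and the MCM helicase genes. Under AZD the median change of the list was -0.70 for SU-DHL-4 and -0.74 for DG-75, where the members had -1.03 and -1.05 and all rows -0.08 and -0.06. Limma called 0 of the 25 under AZD in either line, and 22 and 25 of them had an unadjusted p under 0.05, beside 11.5% and 13.8% of all rows. Under Ento+AZD the list had -1.27 and -0.86, beside -1.13 and -1.08 for the members, and limma called 17 of 25 lower for SU-DHL-4 and 6 of 25 for DG-75. Without the SU-DHL-4 arrays numbered 2 the 17 became 1, and the median of the list was -0.83. The 6 of DG-75 became 0 without the DMSO or without the Ento+AZD array numbered 1. Their part in the changes of the members was not tested.

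Array by array, the members followed the proliferation mean to different degrees. After subtraction of the mean of the same line and replicate number, Pearson's r over the 24 arrays was 0.64 (RGCC) to 0.95 (CCDC167) with a median of 0.80 (Spearman's rank correlation, median 0.80), and the median over all rows was 0.14. All 24 points share the treatments that chose the members, so these values carry no p. Within SU-DHL-4 the median was 0.77 and within DG-75 0.90, over 12 arrays each. Without the 2 arrays farthest from the median, Ento+AZD and DMSO number 2 of SU-DHL-4, it was 0.85. RGCC had 0.43 within SU-DHL-4 and 0.88 within DG-75.

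**Figure D4:**
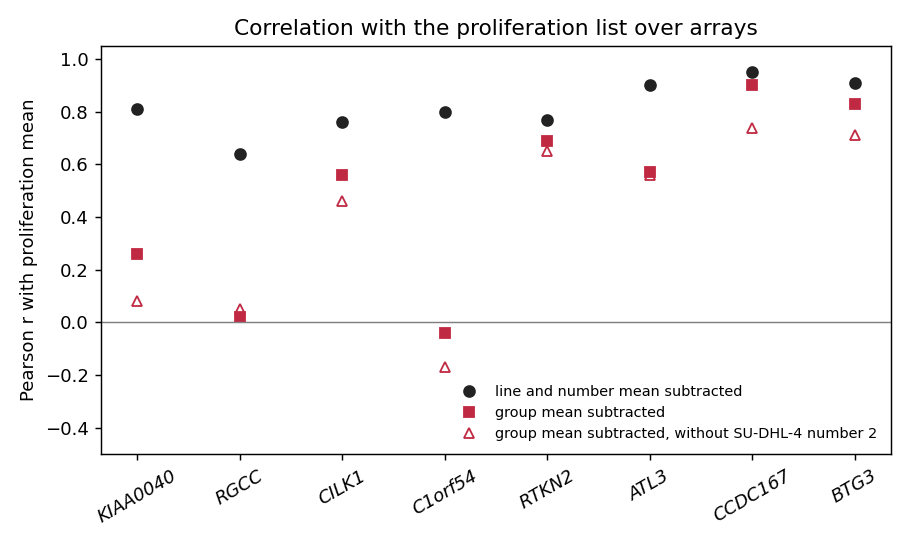
Pearson's r (vertical axis) of each transcript (horizontal axis) with the mean of 25 proliferation transcripts over 24 arrays, with the line and number mean subtracted (circles), with the group mean subtracted (squares), and the latter without the 4 SU-DHL-4 arrays numbered 2 (triangles). All circles lie at 0.64 or above, while squares of KIAA0040, RGCC and C1orf54 lie at 0.26 or below.

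Subtraction of the mean of each group of 3 removes the treatment differences that chose the members and leaves the spread among replicates. Unlike the values above, it also leaves in any shift shared by same-numbered arrays. On that scale CCDC167 (r = 0.90), BTG3 (0.83), RTKN2 (0.69), ATL3 (0.57) and CILK1 (0.56) still varied with the proliferation mean. KIAA0040 (0.26), RGCC (0.02) and C1orf54 (-0.04) had lower values, beside a median of 0.06 over all rows, while the proliferation transcripts themselves had a median of 0.97. A value as high as that of BTG3 was found in 1.53% of all rows. Without the 4 SU-DHL-4 arrays numbered 2, CCDC167 had 0.74, BTG3 0.71, RTKN2 0.65, ATL3 0.56, CILK1 0.46, KIAA0040 0.08, RGCC 0.05 and C1orf54 -0.17. The 5 transcripts named first stayed above the other 3. Arrays of a group share its treatment and line, and the values are a description. In each group of SU-DHL-4, C1orf54 was highest on the array numbered 1 and lowest on the array numbered 3. The proliferation mean was highest on number 3 in each of these groups. RGCC deviated most in DG-75, from -0.55 to 0.80, where its level lay in the range of markers of other cell types. Low values here do not show that a transcript varied apart from proliferation.

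**Figure D5:**
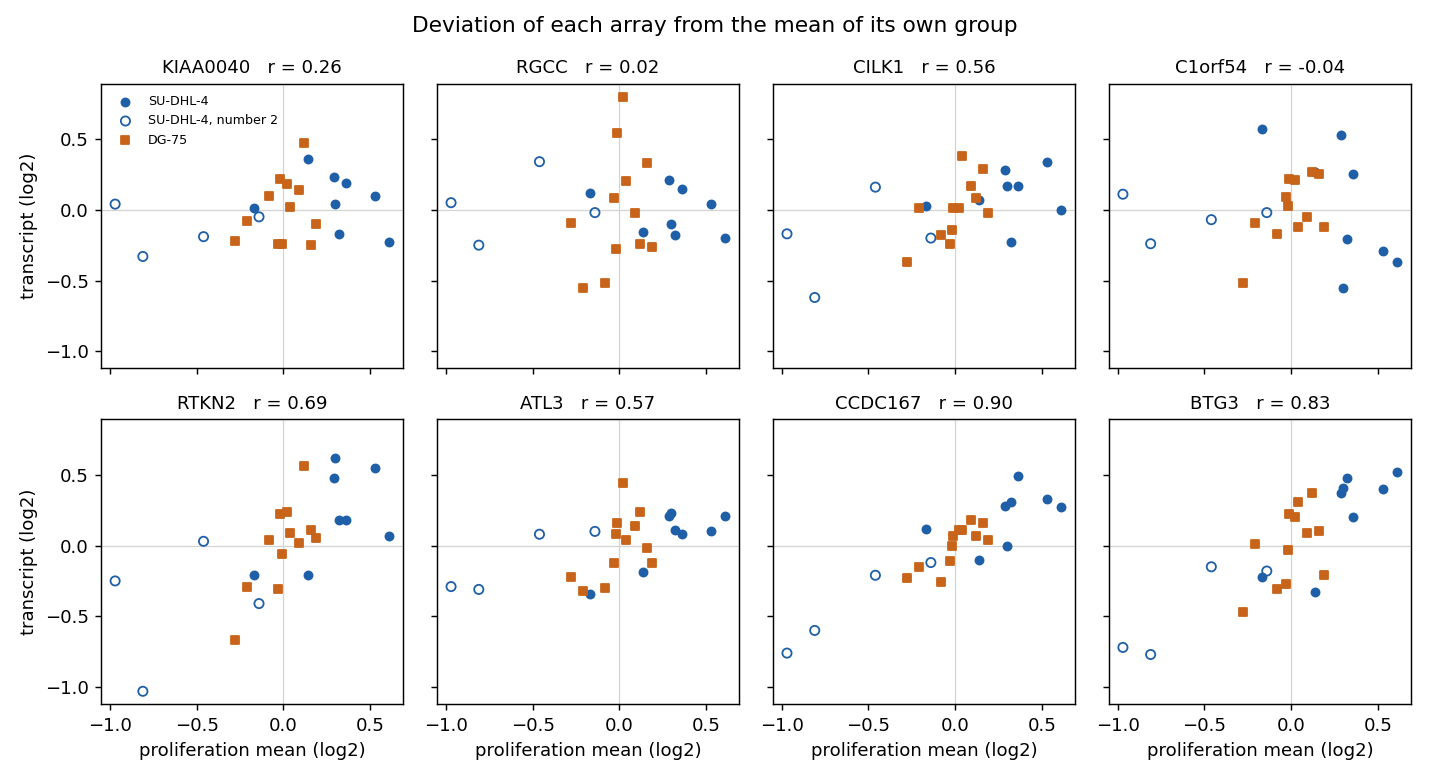
Deviation of each array from the mean of its own group of 3, for the mean of 25 proliferation transcripts (horizontal axis, log2) and for each transcript (vertical axis, log2), with Pearson's r over 24 arrays above each panel (open circles mark SU-DHL-4 arrays numbered 2). The points of CCDC167 (0.90) and BTG3 (0.83) rise along a line, and those of RGCC (0.02) and C1orf54 (-0.04) do not. Shifts shared by same-numbered arrays are not subtracted.

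Between members the falls for which they were chosen are shared, so that a high correlation is built into the choice. Over the 28 pairs, with the line and number mean subtracted, r ran from 0.40 (RGCC with C1orf54) to 0.94 (CCDC167 with BTG3), with a median of 0.81. For each member the 3 transcripts with the most similar pattern were taken from 12601 symbols with a mean at or above the median row. For KIAA0040 these were TRIM14, LRRC34 and THRA (r = 0.95 each), and for RGCC they were CLEC2D (0.92), JADE2 and ARID2 (0.91 each). CILK1 was followed by XRCC4 (0.95), TRIM59 and CCDC7 (0.93 each), and C1orf54 by S100A4, H4C4 and CD63 (0.94 each). S100A4, a small calcium-binding protein, had changes of -1.18 under Ento and -1.47 under Ento+AZD in SU-DHL-4, beside -1.17 and -1.85 for C1orf54. RTKN2 had RAD21 (0.94), CEP20 and MIS18A (0.93 each), ATL3 had MND1, POLQ and NUP35 (0.97 each), CCDC167 had UBE2M, ANP32E and TPX2 (0.97 each), and BTG3 had TMPO (0.97), RBL1 and CD84 (0.96 each). TPX2, a spindle assembly factor, is itself on the proliferation list.

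The nearest measured genes of the members on the chromosome were examined to see whether they moved too. RefSeq names 16 nearest protein-coding neighbours, of which 14 were measured. Some overlapped the member, and others were far from it. CMTR1 lay 1430 bases from CCDC167, RTN3 9476 from ATL3, VWA8 95964 from RGCC and C21orf91 176073 from BTG3. Limma called 0 of the 14 in any of the 6 comparisons with DMSO. An unadjusted p under 0.05 was found for 0 to 2 of them, beside 2.81% to 16.02% of all rows. CXADR, which overlaps BTG3 in the RefSeq table, had the largest changes, -0.90 under AZD (adjusted p = 0.338) and -0.89 under Ento+AZD (adjusted p = 0.299) in DG-75, and -0.03 and 0.00 in SU-DHL-4. APH1A, a subunit of gamma-secretase that overlaps C1orf54, differed by -0.18 and -0.38 in SU-DHL-4 and by -0.09 and -0.04 in DG-75.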

How the data were processed

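Clariom D arrays of 24 samples were used. The deposited values are log2 expression values that the authors made with limma by RMA, the robust multi-array average, with probes mapped to genes by affycoretools. RMA evens out distributions between arrays, and the deposited array medians still ran from 4.89 to 5.14. Genome build and package versions are not given in the sources used here. All sample columns were matched by name, and 0 were left unused. Of 25161 symbols, 24636 were current RefSeq names, 331 older synonyms and 194 unmatched.

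The 8 members, all gene lists and the tests were chosen with earlier results of these data known. Named genes are the members, listed relatives, partners and markers, neighbours, and the 3 most similar transcripts of each member. Of the gene lists, some are not reported here. Where a symbol had several rows, the row with the highest mean was used.

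Groups and replicate numbers came from the sample titles. limma 3.58.1 under R 4.3.3 fitted the changes by lmFit and eBayes within each line, with treatment and replicate number as terms, and adjusted by Benjamini-Hochberg over all 25575 rows. Levels between lines came from 1 fit of all 24 arrays without the number, and the difference between lines in the Ento change from 1 fit with the number within each line. Calls needed an adjusted p under 0.05 and a log2 change beyond 1. Correlations and motif counts were computed in Python 3.11.15 with NumPy 2.4.6 and pandas 2.3.3. The fits were tested on simulated data. Alternatives were no replicate number, 1 fit of all arrays, quantile normalization, subtraction of array medians, omission of rows under the median, a robust prior variance that follows the level, no fold limit, and omission of each array. Omission of the SU-DHL-4 arrays numbered 2, of the 2 farthest arrays, and the subtraction of group means were added after the data were seen.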

Additional observations from a re-analysis of the deposited data

How the results depend on the processing

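Between the lines, the counts of 6 members called under DMSO and 7 under Ento were the same in every alternative run, while calls of treatment changes were lost in several. Under quantile normalization the count of members called was 0 of 5 for AZD in SU-DHL-4, 0 of 4 for AZD in DG-75, 2 of 6 for Ento+AZD in DG-75 and 0 of 1 for Ento in SU-DHL-4. With array medians subtracted it was 0, 0 and 3 for the first 3 of these. Without the SU-DHL-4 arrays numbered 2 it was 0 for Ento, 3 for AZD and 1 (C1orf54) for Ento+AZD in that line. With 1 array left out, counts ran from 0 to 4 (AZD, SU-DHL-4), 0 to 0 (AZD, DG-75), 1 to 6 (Ento+AZD, SU-DHL-4), 0 to 5 (Ento+AZD, DG-75) and 0 to 0 (Ento, SU-DHL-4). The median r with the proliferation mean was 0.57 with group means subtracted, against 0.80. The cause of these losses was not tested. Over all rows, omission of 1 array could also raise the count, with 0 to 119 for AZD in SU-DHL-4 and 0 to 272 for Ento+AZD in DG-75. Subtraction of array medians moved the median change of all rows by over 0.1, from -0.064 to 0.054 (Ento), -0.078 to 0.041 (AZD) and -0.083 to 0.047 (Ento+AZD) in SU-DHL-4 and from -0.055 to 0.046 for the difference between lines.

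The replicate number was a term of the fits within each line because the study's model has a batch term. Not every same-numbered pair correlated above 0.1, so that counts over same-numbered arrays are a description. Deviations of same-numbered arrays had r of -0.11 to 0.39 in SU-DHL-4 (median 0.15, 12 of 18 above 0.1), against a median of -0.07 with 1 of 36 above 0.1 for different numbers. In DG-75 the medians were 0.04 (7 of 18) and -0.01 (11 of 36). With no replicate block, members called were 0 of 1 (Ento, SU-DHL-4), 1 of 5 (AZD, SU-DHL-4) and 2 of 6 (Ento+AZD, SU-DHL-4), and 3 of 4 and 5 of 6 for AZD and Ento+AZD in DG-75. C1orf54 under Ento in SU-DHL-4 then had an adjusted p of 0.364, within a range of 0.0042 to 0.364 over all its alternatives.

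Signs turned only for values near 0, none of them called. Under Ento in SU-DHL-4, KIAA0040 (0.00) became 0.01 with quantile normalization, 0.12 with array medians subtracted and 0.14 without the arrays numbered 2, which also gave 0.04 for CILK1 (-0.17) and 0.15 for BTG3 (-0.14), and 0.03 for ATL3 and 0.06 for CCDC167 in the difference between lines. With 1 array left out, these changes ran from -0.12 to 0.13 (KIAA0040), -0.35 to 0.11 (CILK1) and -0.38 to 0.07 (BTG3) under Ento in SU-DHL-4, and from -0.13 to 0.32 (RGCC), -0.18 to 0.04 (C1orf54) and -0.24 to 0.16 (RTKN2) in DG-75. For Ento+AZD against AZD they ran from -0.16 to 0.06 (KIAA0040, SU-DHL-4) and -0.37 to 0.02 (ATL3, DG-75), and for the difference between lines from -0.11 to 0.34 (RGCC), -0.36 to 0.01 (ATL3), -0.33 to 0.02 (CCDC167) and -0.13 to 0.32 (BTG3).

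Counts over all rows moved as well. They were 46 for AZD in SU-DHL-4 (9 without the block, 0 under quantile normalization and under subtracted medians, 105 with the robust prior) and 46 in DG-75 (122 in 1 fit of all arrays, 2 and 0 under the 2 scalings, 98 without low rows, 155 with the robust prior, 75 with no fold limit). For Ento+AZD they were 304 in SU-DHL-4 (45 without the block, 604 with no fold limit, 55 without the arrays numbered 2) and 213 in DG-75 (611 with no fold limit). For Ento in SU-DHL-4 there were 13 (1 without the block, 25 in 1 fit, 7 under quantile normalization, 32 with the robust prior, 3 without the arrays numbered 2). For Ento+AZD against AZD in SU-DHL-4 there were 7 (1 without the block and 1 without the arrays numbered 2, 12 in 1 fit, 15 with the robust prior). With no fold limit the 1842 rows called between the lines under DMSO became 4507 and the 2054 under Ento became 5051.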
